A study of Mus musculus with 48 samples.

Results

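The colon of Bmal1IEC-/- mice, whose intestinal epithelium lacks the clock gene Bmal1, was compared between CT17, in the middle of the subjective night, and CT5, in the middle of the subjective day. The comparison took the 4 Bmal1IEC-/- mice labelled CT17 and the 4 labelled CT5, 8 of the 48 mice of the series, and all genes of their colon RNA. It asks what still differs between night and day in this tissue when the epithelial clock is lost. The other mice were the remaining Bmal1IEC-/- colons, taken at CT1, CT9, CT13 and CT21, and 4 Bmal1fl/fl control colons at each of these 6 times. All were male mice on a C57BL/6J background that carried both copies of Bmal1 floxed, housed singly with a running wheel and free access to food. They lived in a light-dark cycle and were killed on the second day of constant darkness. The Bmal1IEC-/- mice also carried Cre recombinase under the Villin promoter, which acts in the intestinal epithelium, and their controls were littermates without it. The design deletes nothing in the muscle, stroma, nerves, vessels and immune cells of the sampled colon, nor in the rest of the body.

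The circadian clock is a feedback loop of transcription. BMAL1 and CLOCK bind E-box sequences and switch on the Per and Cry genes, whose proteins inhibit BMAL1 and CLOCK, and the Nr1d1 and Nr1d2 genes, whose REV-ERB proteins repress Bmal1 itself. Outside the cell, feeding, body temperature and hormones such as glucocorticoids also change between day and night and reach tissues whose own clock does not run. The colon epithelium renews itself continuously from crypt stem cells, absorbs water and salts, and handles bacterial products and foreign compounds.

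The 8 colons had 3435263 to 4331962 reads counted on genes, with 3850914 to 4200607 at CT17 and 3435263 to 4331962 at CT5, and mitochondrial genes held 5.47% to 6.3% of the counts at CT17 and 5.58% to 5.98% at CT5. At this depth a count of 0 allows up to 3 counts, a floor that covers counting error only. Mice of a group differed by more than counting error, with a chi-square per gene of 3.02 to 6.62 over the 12 pairs of mice. Summed epithelial markers, among them Epcam, Cdh1, Vil1 and Krt20, ran from 39490 to 42130 normalised counts at CT17 and from 39120 to 44460 at CT5. They mark intestinal epithelium and do not by themselves tell colon from small intestine. Small intestine markers summed to 969.5 to 1552 and 1243 to 1935, and distal colon position markers to 54.14 to 92.92 and 40.66 to 82.49. Smooth muscle markers were also high, at 16860 to 22210 and 21150 to 24140. Summed fibroblast markers lay at 4086 to 5625 and 5171 to 7309, crypt stem and transit cell markers at 349.9 to 454.4 and 321.9 to 466.7, and adipocyte markers at 125.1 to 1326 and 96.55 to 543.2. The ranges of both times overlapped for each of the 19 marker lists. Of the single markers, Col3a1, a fibroblast collagen, and Acta1, of skeletal muscle, fell at CT17 by an adjusted p of 0.05 and a fold change of 1.5. By the adjusted p alone, Smoc2 of stem and transit cells, Acta2 of smooth muscle, and Tek and Emcn of endothelium were also lower (log2 fold changes -0.41, -0.33, -0.44 and -0.49). Vil1 of the epithelium and Tph1 of enteroendocrine cells were higher (0.23 and 0.48). The part of these markers in the results was not tested. Cela2a, Prss2 and Pnlip of the exocrine pancreas, Myh4 of skeletal muscle and Hoxb13 of distal colon position were at 0 in all 8 colons. On the first principal component, which held 25.7% of the variance of the 500 most variable genes, CT17 mouse SV416 scored -1.06, against 12.9 to 17.1 in the other CT17 mice and -16.9 to -3.30 in the CT5 mice.

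Between CT17 and CT5, 857 of the 15073 genes tested passed an adjusted p of 0.05 and a fold change of 1.5, of which 318 were higher at CT17 (2.11% of the genes tested) and 539 lower (3.58%). Genes of cell division were lower at CT17, and genes of protein folding in the cytosol and in the endoplasmic reticulum were higher. Among single transport genes, the water channel Aqp8, the anion exchanger Slc26a3 and the drug exporter Abcb1a were lower. The proton pump Atp12a was higher, at low counts that overlapped between the times. Most members of their lists did not pass both thresholds. The clock genes Nr1d1, Nr1d2 and Dbp were lower at night and Per2 was higher, whereas Cry1 and Nfil3 did not pass the test and differed in this from control colon, where they rose. Here and below, adjusted p-values are those of edgeR's quasi-likelihood test, corrected by the Benjamini-Hochberg method over the genes tested. A log2 fold change is CT17 over CT5, and normalised counts are read counts divided by DESeq2's size factors. The value after the ± of a log2 fold change or genotype difference is a standard error worked back from the test. It is the size of the change over the square root of the F value. The p-values measure the spread between separate mice. Among the genes that passed, 91 were more than 2-fold higher and 208 more than 2-fold lower, and 778 were protein coding. All 4 mice of one time lay apart from all 4 of the other for 255 of the 318 higher and 442 of the 539 lower genes, beside 8.29% and 9.24% of all genes tested. As these genes were chosen by their difference in the same 8 mice, the choice itself favours such separation. Without mouse SV416, 967 genes passed, 364 higher and 603 lower.

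**Figure D1:**
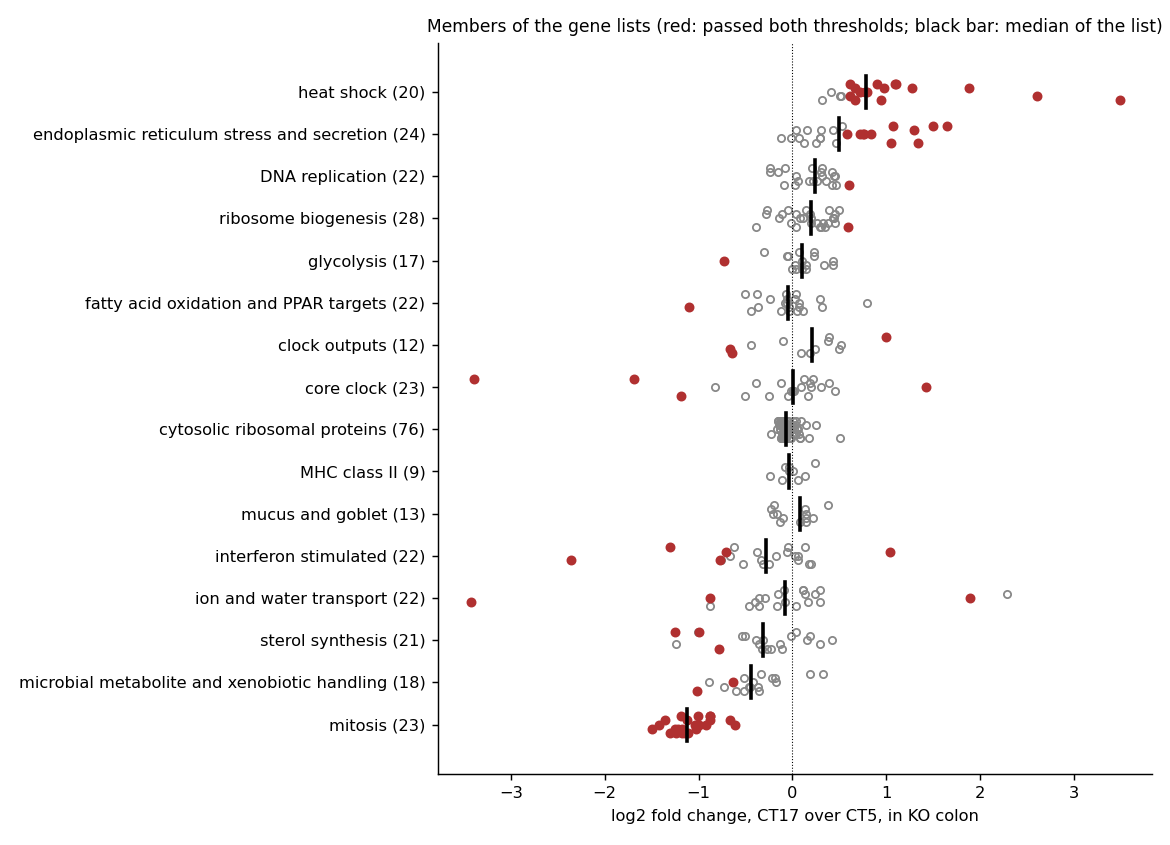
Log2 fold changes of CT17 over CT5 in Bmal1IEC-/- colon (KO) for the tested members of 16 gene lists, 1 point a gene, with the number of genes in brackets. Red points passed the adjusted p and the fold change, grey rings did not, and the black bar is the median of the list. All 23 mitosis genes lie left of 0, all 20 heat shock genes lie right of it, and the 76 cytosolic ribosomal protein genes lie between -0.22 and 0.51.

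Of the 23 core clock genes tested, 1 rose and 3 fell at CT17 in Bmal1IEC-/- colon, beside 2.11% higher and 3.58% lower of all genes tested. The adjusted p was not passed by 18, and the median log2 fold change was 0.01 beside -0.00 over all genes. In control colon 8 rose and 4 fell, beside 3.3% higher and 4.76% lower of all genes tested. Bmal1, listed as Arntl (ENSMUSG00000055116.8, chromosome 7, 113207465 to 113314126, GRCm38), is the gene deleted in the epithelium. Its normalised counts were 106, 119.9, 122 and 132 at CT17 and 118, 120.0, 122 and 133 at CT5, ranges that overlapped (log2 fold change -0.04 ± 0.15, edgeR adjusted p = 0.9). The count sums all exons of the gene in the whole tissue, so it does not show the floxed part by itself. Over the day the mean count of Arntl ran from 114 at CT9 to 177 at CT1 in Bmal1IEC-/- colon, and from 26.4 at CT9 to 260.0 at CT1 in control colon. At CT17 and CT5, the times compared here, the genotypes were at 120.0 ± 10.5 and 123 ± 6.81 against 99.3 ± 22.6 and 124 ± 16.5 (mean ± SD, n = 4).

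The difference between night and day with the smallest p over all genes was that of Nr1d1 (ENSMUSG00000020889.11, chromosome 11, 98767932 to 98775333), which encodes the repressor REV-ERB alpha. Its counts were 16.04, 17.1, 17.6 and 21.4 at CT17 and 152, 157, 199 and 252 at CT5, with no overlap (log2 fold change -3.40 ± 0.30, edgeR adjusted p = 2.9e-10). In control colon the counts were higher at both times, 32.00 to 54.1 and 391 to 536, with a log2 fold change of -3.35 ± 0.25 that differed from the other by -0.05 ± 0.38. Thus the fold of Nr1d1 between the times was 10.5 on a level that was lower in Bmal1IEC-/- colon. Its paralogue Nr1d2 had 39.96, 67.2, 87.3 and 119 counts at CT17 and 152, 169, 175 and 218 at CT5, again without overlap (log2 fold change -1.19 ± 0.19, edgeR adjusted p = 4.6e-05). Dbp, an activator of transcription from D-box sequences, had 9.51, 21.1, 24.4 and 26.02 counts at CT17 and 46.3, 52.5, 71.6 and 89.03 at CT5, with all CT17 mice below all CT5 mice (log2 fold change -1.69 ± 0.29, edgeR adjusted p = 9.8e-05). The remaining relatives of Dbp that bind the same sequence, Tef and Hlf, were at log2 fold changes of 0.00 ± 0.13 and 0.01 ± 0.21 and did not pass.

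Per2 (ENSMUSG00000055866.9, chromosome 1, 91415982 to 91459324), an inhibitor of CLOCK and BMAL1, was the core clock gene that rose. Its counts were 305, 405, 407 and 467 at CT17 and 143, 143, 150.0 and 155 at CT5, with the CT5 mice closely together and the CT17 mice all above them (log2 fold change 1.42 ± 0.19, edgeR adjusted p = 3.8e-06). In control colon the counts lay at 355 to 568 and 36.02 to 66.7, a log2 fold change of 2.98 ± 0.21. The genotypes differed in this change by -1.55 ± 0.29 (edgeR adjusted p = 0.0065), a difference that had an adjusted p of 0.0556 without control CT5 mouse SV447. Of the times compared, CT5 was where the genotypes lay further apart. Per2 at CT5 was 148 ± 5.67 in Bmal1IEC-/- and 56.7 ± 14.2 in control colon, while at CT17 it was 396 ± 67.4 and 446 ± 98.3. The genotypes were not tested against each other at either time. Per1 and Per3, the other Period genes, were at log2 fold changes of 0.45 ± 0.35 and 0.19 ± 0.18 (edgeR adjusted p = 0.41 and 0.52). Per3 was at 1.19 ± 0.17 in control colon, and the genotype difference did not pass (edgeR adjusted p = 0.19).

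Cry1, the second kind of inhibitor, had 265, 287, 299 and 299.7 counts at CT17 and 224, 238, 268 and 289.6 at CT5, ranges that overlapped (log2 fold change 0.17 ± 0.14, edgeR adjusted p = 0.43). In control colon it stood at 163 to 209 and 26.3 to 49.5, a log2 fold change of 2.47 ± 0.18 and a genotype difference of -2.29 ± 0.23 (edgeR adjusted p = 4.1e-09). Both times in Bmal1IEC-/- colon were thus above the control level at its higher time. Nfil3, a repressor at D-boxes, was at 93.2 ± 16.02 and 87.5 ± 7.204 in Bmal1IEC-/- colon, a log2 fold change of 0.09 ± 0.16 against 1.39 ± 0.19 in control colon (genotype difference -1.301 ± 0.25, edgeR adjusted p = 0.015, which did not hold in 3 of 16 fits without single mice, nor with the compared groups alone, at 0.106). Npas2, which can stand in for Clock, was at -0.12 ± 0.14 against -0.93 ± 0.16, a difference that did not pass (edgeR adjusted p = 0.25).

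Clock itself, the partner of Bmal1, was at 0.22 ± 0.17, and Cry2, Bhlhe40 and Bhlhe41 were at 0.02 ± 0.15, -0.01 ± 0.14 and -0.82 ± 0.40, none past the threshold. Fbxl21 was too low to be tested.

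**Figure D2:**
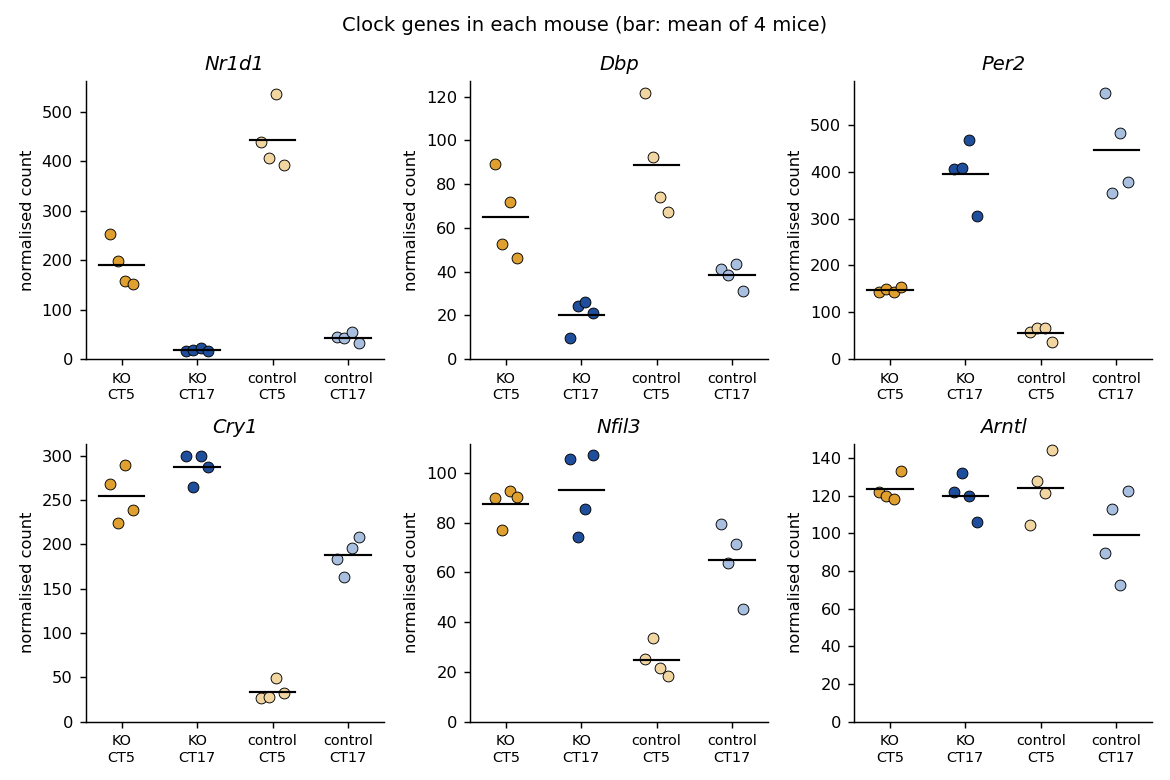
Normalised counts of Nr1d1, Dbp, Per2, Cry1, Nfil3 and Arntl in each mouse (points) with the mean of 4 mice (bars), for Bmal1IEC-/- (KO) and control colon at CT5 and CT17, on linear axes from 0. Nr1d1 and Dbp are lower and Per2 higher at CT17 in both genotypes, whereas Cry1 and Nfil3 differ less between the times in KO colon than in control colon, where both are higher at CT17.

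To show the sequences through which clock proteins act, the 250 bases before the start of each gene, from RefSeq (GRCm38.p6), were searched on both strands for the E-box CACGTG and the D-box, TTATGTAA or TTACGTAA. A window was given for 19 of the core clock genes, and none for Per2, Bhlhe40 and Csnk1d, among others. The E-box stood in 5 of them (26.3%), those of Per1, Cry1, Tef, Ciart and Bhlhe41, beside 6.86% of the 27025 promoters given, and the D-box in 2 (10.5%), those of Per3 and Timeless, beside 1.1%. None of these 7 genes passed the test in Bmal1IEC-/- colon, and the windows of Nr1d1, Nr1d2 and Dbp, which did, hold neither motif in these letters. Bases further upstream or within the genes were not searched, so this does not show that such sites are absent from these genes. The windows of Cry1 (minus strand, chr10:85185055-85185304) and Per3 (minus strand, chr4:151044666-151044915) are shown 5′ to 3′ along the gene as examples of an E-box and a D-box, with the motifs in capitals.
Cry1 promoter: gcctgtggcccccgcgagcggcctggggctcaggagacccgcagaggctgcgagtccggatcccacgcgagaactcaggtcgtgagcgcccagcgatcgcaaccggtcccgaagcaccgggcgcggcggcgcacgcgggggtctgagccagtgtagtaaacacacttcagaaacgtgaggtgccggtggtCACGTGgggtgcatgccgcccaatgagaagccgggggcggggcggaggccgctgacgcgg
Per3 promoter: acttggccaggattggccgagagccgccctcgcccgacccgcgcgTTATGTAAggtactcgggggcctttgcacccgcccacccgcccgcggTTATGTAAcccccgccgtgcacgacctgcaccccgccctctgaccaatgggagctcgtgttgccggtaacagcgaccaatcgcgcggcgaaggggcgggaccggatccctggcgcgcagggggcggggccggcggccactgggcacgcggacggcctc
The E-box of Cry1 begins 60 bases before the start of the gene and the pair of D-boxes of Per3 begin 205 and 158 bases before it.

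Genes known to be driven directly by the clock in many tissues gave a similar count to the core clock, with 1 of 12 higher and 2 lower at CT17 and a median log2 fold change of 0.21. The shares over all genes tested were 2.11% higher and 3.58% lower. In control colon 6 of the 12 rose and 1 fell, beside 3.3% and 4.76% of all genes tested. No member had a genotype difference past the threshold (smallest edgeR adjusted p = 0.28). Usp2, a deubiquitinase, was at 114, 164, 167 and 216 at CT17 and 64.6, 72.3, 84.4 and 107 at CT5 (log2 fold change 1.001 ± 0.23, edgeR adjusted p = 0.0029), apart in all mice. Cdkn1a, the cell cycle inhibitor p21, fell from 571 ± 102 at CT5 to 366 ± 31.6 at CT17 (log2 fold change -0.64 ± 0.15, edgeR adjusted p = 0.0026). Ypel2 was likewise lower (log2 fold change -0.66 ± 0.16, edgeR adjusted p = 0.0035), and Por, the electron donor of cytochrome P450 enzymes, was higher by less than the fold threshold (log2 fold change 0.50 ± 0.13, edgeR adjusted p = 0.0066). The count of lower genes was 1 without CT5 mouse SV439 or without CT17 mouse SV437.

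Chaperones of the cytosol were higher at night in Bmal1IEC-/- colon. Of 20 heat shock genes, 16 rose and none fell, beside 2.11% and 3.58% of all genes tested, with a median log2 fold change of 0.79. By an adjusted p under 0.05 alone 19 were higher, beside 6.25% of all genes. The count of 16 became 12 to 17 when single mice were left out. In control colon 16 rose as well, beside 3.3% of all genes tested, with a median of 0.81. Hspa8, the constitutive Hsp70 that folds new proteins, had 7972, 8180.2, 8269 and 12447 counts at CT17 and 3898, 4326, 4497 and 4526 at CT5 (log2 fold change 1.09 ± 0.18, edgeR adjusted p = 8.4e-05). CT17 mouse SV437 carried the highest Hspa8 count, and the other CT17 mice also lay above all CT5 mice. Stip1, which links Hsp70 to Hsp90, had 439, 496, 552 and 688 counts at CT17 and 223, 236, 268 and 285 at CT5, without overlap (log2 fold change 1.10 ± 0.18, edgeR adjusted p = 8.4e-05). Hsph1, an Hsp110 family exchange factor of Hsp70, had 514, 602, 644 and 957 at CT17 and 156, 159, 195 and 226 at CT5 (log2 fold change 1.89 ± 0.34, edgeR adjusted p = 0.00022). The stress-inducible Hsp70 genes Hspa1a and Hspa1b were low by day, and as they are near-identical copies their counts are uncertain, since reads that fit both genes may be missing. Hspa1a was at 17.04, 33.2, 38.1 and 82.7 at CT17 and 0, 2.02, 4.52 and 8.09 at CT5 (log2 fold change 3.50 ± 0.79, edgeR adjusted p = 0.0022). For Hspa1b the counts were 56.1, 82.1, 82.8 and 159.8 at night and 9.08, 9.37, 20.7 and 23.7 by day (log2 fold change 2.61 ± 0.64, edgeR adjusted p = 0.0045).

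The Hsp90 genes Hsp90aa1 and Hsp90ab1 rose by log2 fold changes of 1.28 ± 0.22 and 0.62 ± 0.13, and the mitochondrial chaperonin pair Hspd1 and Hspe1 by 0.62 ± 0.13 and 0.72 ± 0.14. Dnajb1, a co-chaperone of Hsp70, was the member that did not pass the adjusted p (log2 fold change 0.31 ± 0.17, edgeR adjusted p = 0.21). Among the cold-inducible RNA-binding proteins, which respond to temperature in the opposite sense, Cirbp had 89.2, 92.2, 98.95 and 143 counts at CT17 and 221, 238, 242 and 243 at CT5, all lower at night (log2 fold change -1.16 ± 0.21, edgeR adjusted p = 0.00019). Rbm3, its relative, was at -0.40 ± 0.13 (edgeR adjusted p = 0.028), a call lost without CT5 mouse SV477 or CT17 mice SV399 or SV437, where the adjusted p reached 0.154. The heat shock level of a mouse, given as the mean over the 20 genes of the log2 deviation from each gene's mean over Bmal1IEC-/- mice, lay at 0.23 to 0.80 at CT17 and at -0.72 to -0.44 at CT5. Over the 6 times, 11 of the 20 genes had their highest mean at CT17 and 7 at CT13, and 16 had their lowest at CT5.

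Promoters of the heat shock list were searched in the same windows for the heat shock element, the site of heat shock factors, written GAANNTTC or TTCNNGAA. It stood in 9 of the 17 windows given (52.9%), those of Hspa1a, Hspa1b, Hsph1, Hspb1, Hspe1, Hspd1, Dnaja1, Dnajb4 and Fkbp4, beside 14.5% of all promoters and 0 of the 19 core clock windows. No window was given for Hspa8, Hsp90aa1 and Hsp90ab1. The windows of Hsph1 (minus strand, chr5:149636337-149636586) and Hspa1b (minus strand, chr17:34959239-34959488), among the members with the higher fold changes, are shown with the element in capitals.
Hsph1 promoter: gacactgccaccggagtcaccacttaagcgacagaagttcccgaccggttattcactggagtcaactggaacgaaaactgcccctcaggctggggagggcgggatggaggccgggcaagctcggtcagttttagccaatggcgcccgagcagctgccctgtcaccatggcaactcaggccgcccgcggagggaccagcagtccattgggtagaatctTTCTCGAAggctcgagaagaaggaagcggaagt
Hspa1b promoter: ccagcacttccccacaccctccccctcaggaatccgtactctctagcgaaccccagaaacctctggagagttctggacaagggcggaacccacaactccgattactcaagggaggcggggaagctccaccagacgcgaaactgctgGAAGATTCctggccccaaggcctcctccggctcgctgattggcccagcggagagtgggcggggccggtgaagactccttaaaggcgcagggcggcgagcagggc
The element begins 33 bases before the start of Hsph1 and 104 bases before that of Hspa1b.

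Genes of the endoplasmic reticulum, where secreted and membrane proteins fold, formed another group higher at CT17. Of 24 genes 11 rose and none fell, beside 2.11% and 3.58% of all genes tested, with a median log2 fold change of 0.50. By the adjusted p alone 16 rose and 0 fell, beside 6.25% and 7.42% of all genes. Hyou1, a chaperone of the Hsp110 kind, had 810.0, 961, 1045 and 1182 counts at CT17 and 329.9, 345, 357 and 374 at CT5, apart in all mice (log2 fold change 1.51 ± 0.20, edgeR adjusted p = 3.0e-06). Hspa5, the lumenal Hsp70 known as BiP, had 3456, 3636, 3818 and 4335 counts at CT17 and 1304, 1415, 1723 and 1739.6 at CT5 (log2 fold change 1.301 ± 0.21, edgeR adjusted p = 5.1e-05). Creld2 and Manf, secreted proteins induced when unfolded proteins accumulate, were at 1.34 ± 0.21 and 1.05 ± 0.18. Transcription factors of the unfolded protein response had smaller values, with Xbp1 at 0.04 ± 0.07, Ddit3 at -0.02 ± 0.20 and Atf4 at 0.08 ± 0.07, none of them past the threshold. In control colon 9 genes of the list rose, beside 3.3% of all genes tested, with a median of 0.49. List levels were 0.16 to 0.37 at CT17 and -0.39 to -0.23 at CT5. At the remaining times of Bmal1IEC-/- colon the mean level was -0.12 at CT13, 0.26 at CT21, 0.19 at CT1 (2 mice) and -0.20 at CT9. Over those times the median log2 fold change of night over day was 0.04. The rise is thus one of CT17 over CT5 and not of the whole night over the whole day.

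Genes of mitosis were lower at night, without an exception among the 23 tested. All 23 fell at CT17, beside 3.58% of all genes tested. Their log2 fold changes were -1.49 to -0.61, with a median of -1.12, and 20 to 23 passed when single mice were left out. In control colon all 23 fell too, beside 4.76% of all genes tested, with a median of -1.53. No member had a genotype difference past the threshold. Nusap1, a spindle microtubule protein, had 32.5, 41.9, 43.97 and 44.1 counts at CT17 and 85.8, 103, 119 and 148 at CT5 (log2 fold change -1.49 ± 0.24, edgeR adjusted p = 5.1e-05). Ccnb2, a B-type cyclin that drives entry into mitosis, had 26.9, 43.1, 45.7 and 54.7 counts at CT17 and 96.01, 109, 119 and 131 at CT5 (log2 fold change -1.42 ± 0.23, edgeR adjusted p = 6.4e-05). Mki67, the proliferation antigen Ki-67, had 230.5, 287, 429 and 450.2 counts at CT17 and 597, 740.5, 805 and 879.9 at CT5, again with all CT17 mice below all CT5 mice (log2 fold change -1.12 ± 0.22, edgeR adjusted p = 0.00064). Plk1, a mitotic kinase, had the least change of the list (log2 fold change -0.61 ± 0.11, edgeR adjusted p = 0.0002). Genes outside the list that act in cell division stood among those with the smallest p, as Cdca3 (log2 fold change -1.68 ± 0.22, edgeR adjusted p = 3.0e-06), Racgap1 of the cytokinesis machinery (log2 fold change -1.29 ± 0.18, edgeR adjusted p = 1.3e-05) and Iqgap3 (log2 fold change -1.63 ± 0.24, edgeR adjusted p = 1.9e-05). The crypt stem and transit markers gave overlapping sums at both times, as above, though Smoc2 was lower at CT17 by the adjusted p alone. In whole tissue fewer cells of a kind cannot be told apart from less RNA per cell.

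Genes of DNA replication did not follow, with 1 of 22 higher, none lower and a median of 0.24, beside 2.11% higher and 3.58% lower of all genes. Mcm2, a subunit of the replicative helicase, was the gene that rose, at 118 ± 16.6 at CT17 and 77.4 ± 5.54 at CT5 (log2 fold change 0.61 ± 0.17, edgeR adjusted p = 0.013), and it fell below the fold threshold without CT5 mice SV440 or SV478 or CT17 mice SV399 or SV416. Over the 6 times the lists differed in when they were high. The mean of 22 of the 23 mitosis genes was lowest at CT17 and that of 13 was highest at CT9. Of the 22 replication genes, 18 were lowest at CT13, 14 highest at CT1 and 8 highest at CT21. CT5 and CT17 thus met the mitosis genes near the ends of their daily range and the replication genes between theirs. Mitosis list levels were -0.92 to -0.35 at CT17 and 0.26 to 0.63 at CT5, while replication levels were -0.15 to 0.19 and -0.26 to -0.04, which overlapped.

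**Figure D3:**
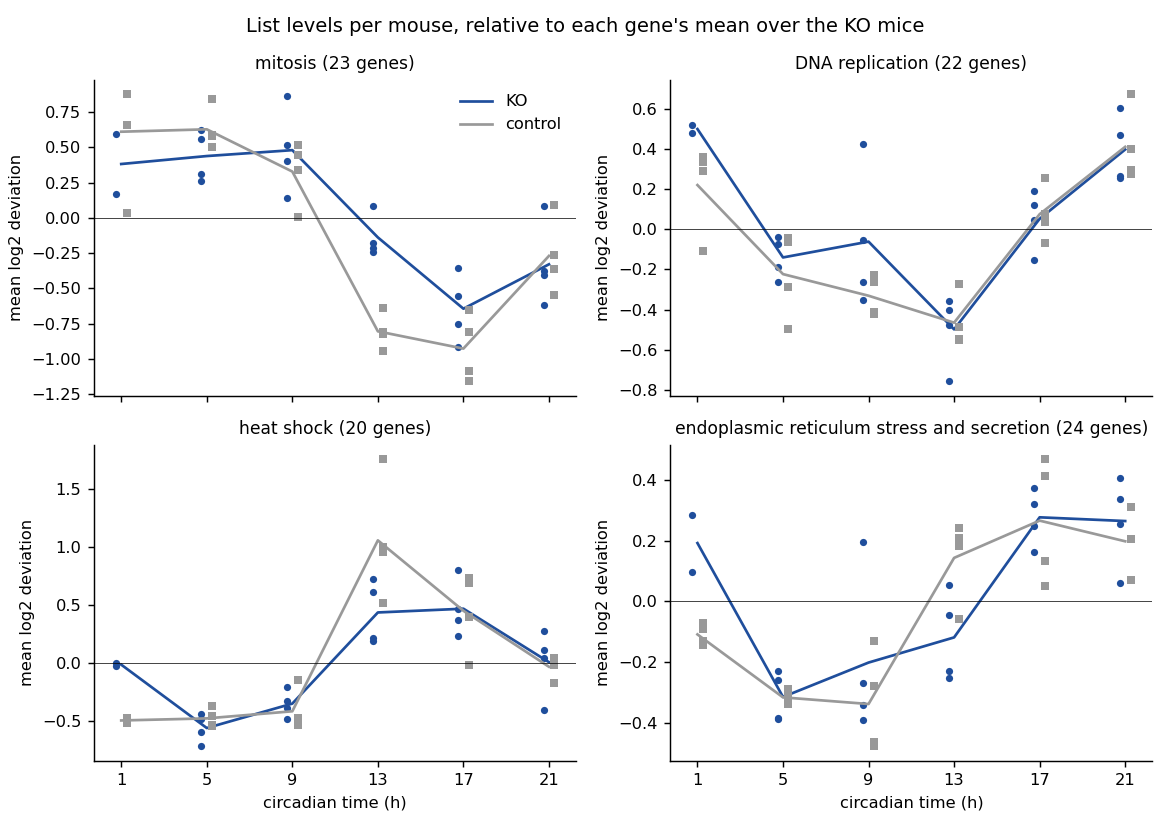
Levels of 4 gene lists in each mouse against circadian time in hours, as the mean over the genes of the log2 deviation from each gene's mean over Bmal1IEC-/- (KO) mice, with lines through the group means. KO groups hold 4 mice, 2 at CT1, and control groups 4. Mitosis in KO colon is lowest at CT17 and heat shock lowest at CT5, whereas DNA replication is lowest at CT13.

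Among the transporters by which the colon absorbs salt and water, 2 of 22 fell and 1 rose, with a median of -0.08. Of all genes tested, 3.58% fell and 2.11% rose. By sign alone, 12 of the 22 were lower and 10 higher, so the list did not move as a whole. Aqp8 (ENSMUSG00000030762.11, chromosome 7, 123462291 to 123468004), a water channel of surface colonocytes, had 1.903, 6.505, 8.02 and 14.7 counts at CT17 and 33.3, 50.8, 60.9 and 194 at CT5. Every CT17 mouse lay below every CT5 mouse, though the counts are low and spread widely (log2 fold change -3.43 ± 0.58, edgeR adjusted p = 9.8e-05). Slc26a3, which exchanges chloride for bicarbonate at the apical membrane, had 259, 327, 392 and 471 counts at CT17 and 516, 562, 748 and 842 at CT5, without overlap (log2 fold change -0.88 ± 0.18, edgeR adjusted p = 0.00076). In control colon these genes were at -0.62 ± 0.49 and -0.08 ± 0.17, and the genotype differences of -2.82 ± 0.78 and -0.80 ± 0.25 did not pass (edgeR adjusted p = 0.32 and 0.5). Car2, a carbonic anhydrase that supplies bicarbonate, had 2299.9, 2343, 2445 and 2515 counts at CT17 and 3029, 3060.4, 3245 and 3259.8 at CT5, a small difference that separated all mice (log2 fold change -0.39 ± 0.07, edgeR adjusted p = 0.00023). The log2 fold change of Car2 in control colon was 0.15 ± 0.07, and the genotype difference of -0.55 ± 0.10 passed the adjusted p (0.0065 by edgeR) here and in all 16 fits without a single mouse, but not with the compared groups alone (0.0838). Car1 and Slc9a2, a further carbonic anhydrase and a sodium-proton exchanger, were at -0.35 ± 0.10 and -0.46 ± 0.08, where the call on Car1 (edgeR adjusted p = 0.019) was lost without SV477 or SV416 and reached 0.0877. Atp12a, the colonic proton pump, was the gene that rose (log2 fold change 1.90 ± 0.54, edgeR adjusted p = 0.015), and its adjusted p reached 0.0858 without SV437 or SV477. Its counts were low and overlapped, at 5.01 to 19.5 at CT17 and 1.01 to 7.50 at CT5.

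Of 18 exporters, enzymes and receptors that handle foreign compounds and bacterial metabolites, 2 fell at night, beside 3.58% of all genes, and none rose. The median was -0.44, and 8 were lower by the adjusted p alone, beside 7.42% of all genes. Abcb1a (ENSMUSG00000040584.8, chromosome 5, 8660077 to 8748575), the apical drug exporter P-glycoprotein, had 1962, 2039, 2081 and 2743 counts at CT17 and 3577, 4605, 4626 and 5029.7 at CT5 (log2 fold change -1.02 ± 0.12, edgeR adjusted p = 4.0e-07). Mouse SV481 lay above the other CT17 mice and still below all CT5 mice. In control colon Abcb1a was at 3805 to 5145 and 4803 to 5468 with a log2 fold change of -0.24 ± 0.12, and the genotype difference of -0.77 ± 0.16 passed (edgeR adjusted p = 0.034) but held in 5 of the 16 fits without a single mouse, in which the adjusted p reached 0.179. Abcc3, an exporter of conjugates at the basal side, and Abcg2, an apical one, were at -0.63 ± 0.13 and -0.51 ± 0.10 (edgeR adjusted p = 0.00079 and 0.0005), and Abcc3 was under the fold threshold without SV439 or SV399, at -0.57 in both fits, so that the count of 2 was then 1. Ugt1a1, which glucuronidates bilirubin and drugs, was at -0.46 ± 0.12, and Nr1i2, the xenobiotic receptor PXR, at -0.34 ± 0.10. Ces1d, a carboxylesterase, moved in opposite directions in the genotypes, with 311, 444, 475 and 521 counts at CT17 and 567, 602, 646 and 682 at CT5 in Bmal1IEC-/- colon (log2 fold change -0.51 ± 0.14, edgeR adjusted p = 0.01) and 1386 to 1815 and 661 to 933 in control colon (log2 fold change 1.001 ± 0.13, edgeR adjusted p = 1.2e-06). The genotype difference of Ces1d, -1.51 ± 0.19, had an adjusted p of 4.1e-06 by edgeR and held in all 16 fits without a single mouse, whereas the fall in Bmal1IEC-/- colon itself was lost without SV416, at -0.38 and an adjusted p of 0.0597, and passed the fold threshold without SV437, at -0.61.

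**Figure D4:**
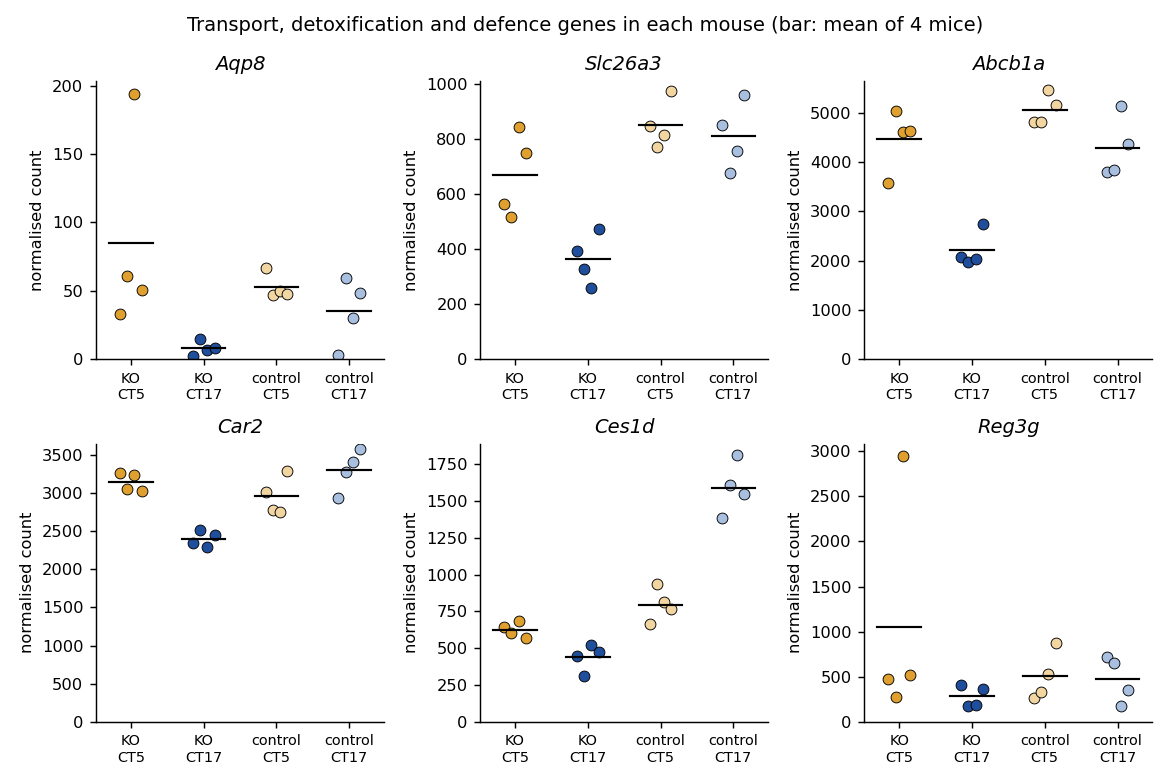
Normalised counts of Aqp8, Slc26a3, Abcb1a, Car2, Ces1d and Reg3g in each mouse (points) with the mean of 4 mice (bars), for Bmal1IEC-/- (KO) and control colon at CT5 and CT17, on linear axes from 0. The first 5 genes are lower at CT17 than at CT5 in all KO mice, and for Reg3g a single KO mouse at CT5 lies at 2945.

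Lists of metabolism held few genes past both thresholds, beside 2.11% higher and 3.58% lower of all genes tested. None moved one way throughout, though some leaned to a side by sign. Of 21 sterol synthesis genes 16 were lower and 5 higher, and of 76 cytosolic ribosomal protein genes 58 were lower and 18 higher. Of 28 ribosome biogenesis genes 21 were higher and 7 lower. Over all genes tested 7514 were higher and 7558 lower. In glycolysis 1 of 17 fell and none rose, with a median of 0.10, and the gene that fell, Pdk1, is a kinase that holds pyruvate back from oxidation, at 139, 161, 164 and 199 counts at CT17 and 239, 251, 299 and 305 at CT5 (log2 fold change -0.73 ± 0.12, edgeR adjusted p = 9.9e-05). Tpi1 and Pgam1, enzymes of the glycolytic chain, were higher by less than the fold threshold, at 0.44 ± 0.08 and 0.43 ± 0.10 (edgeR adjusted p = 0.00012 and 0.0035). Among 22 genes of fatty acid oxidation and PPAR targets, 1 fell, none rose and the median was -0.04. In control colon 4 rose, beside 3.3% of all genes tested. The gene that fell in Bmal1IEC-/- colon is given next. Pdk4, a fasting-induced relative of Pdk1, was that gene, at 97.6, 105, 144 and 149 at CT17 and 170.0, 187, 297 and 411 at CT5 (log2 fold change -1.10 ± 0.29, edgeR adjusted p = 0.009), and without SV477 it was at -0.82 with an adjusted p of 0.078. Slc25a20, the carnitine carrier of the mitochondrion, and Acadl, a dehydrogenase of long chains, were lower by less than the fold threshold, at -0.50 ± 0.11 and -0.37 ± 0.08. Of 21 sterol synthesis genes 3 fell, none rose and the median was -0.31, with 1 to 4 genes fallen when single mice were left out, 1 of them without SV437. Cyp51, a demethylase of the pathway, was at -0.78 ± 0.18, and Dhcr7, its last reductase, at 0.43 ± 0.09, opposite in sign (edgeR adjusted p = 0.0025 and 0.0019). In fatty acid synthesis 2 of 12 rose and none fell, with a median of 0.13, and 0 passed without CT5 mice SV440 or SV478. Of 28 ribosome biogenesis genes 1 rose, with a median of 0.20 and with 0 risen without SV477, SV399 or SV437 and 2 without SV478. By the adjusted p alone 7 of them were higher and 2 lower, beside 6.25% and 7.42% of all genes. None of 76 cytosolic ribosomal protein genes passed, with a median of -0.07.

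Lists of defence and stress signalling held few genes past both thresholds, and most of those calls changed when single mice were left out. Over all genes tested the shares were 2.11% higher and 3.58% lower. Among 22 interferon-stimulated genes 1 rose and 4 fell, with a median of -0.28, and the number fallen was 0 without CT5 mouse SV477, 1 without SV437 and 2 without SV440, SV399 or SV481. Mx1, an antiviral GTPase, was the one that rose, at 55.7, 80.2, 86.4 and 89.4 at CT17 and 29.99, 30.3, 42.9 and 47.7 at CT5 (log2 fold change 1.04 ± 0.21, edgeR adjusted p = 0.00083). Reg3g, a lectin that kills Gram-positive bacteria and shares sequence with other Reg3 genes, was the antimicrobial gene of 13 that fell, at 175, 186, 362 and 406 at CT17 and 269, 469, 519.6 and 2945 at CT5 (log2 fold change -1.90 ± 0.63, edgeR adjusted p = 0.038). Without SV477, the CT5 mouse with the count of 2945, Reg3g was at -0.58 with an adjusted p of 0.595. None of 9 MHC class II genes and none of 13 mucus and goblet cell genes passed, with medians of -0.03 and 0.08. In the immediate early list 3 of 18 rose, with a median of 0.36, and 0 passed without SV440, SV477, SV399 or SV437. In the glucocorticoid-responsive list 1 of 15 rose and 2 fell, with a median of 0.19, the fallen being Cdkn1a and Pdk4, and the risen one, Sgk1, at 0.79 ± 0.26 (edgeR adjusted p = 0.036), was lost without any of 6 mice, SV440, SV477, SV478, SV399, SV437 and SV481.

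Several genes with the smallest adjusted p belong to none of these lists. Tnfrsf12a (ENSMUSG00000023905.15, chromosome 17, 23675445 to 23677468), the receptor of the cytokine TWEAK, had 50.1, 56.7, 83.7 and 88.3 counts at CT17 and 14.4, 15.8, 19.2 and 20.6 at CT5, apart in all mice (log2 fold change 1.99 ± 0.24, edgeR adjusted p = 8.3e-07). Further risen genes were Mpp2 at 2.05 ± 0.32, the tubulin Tuba4a at 1.196 ± 0.19, the mitochondrial glutamate carrier Slc25a22 at 1.15 ± 0.17, pyridoxal kinase Pdxk at 0.94 ± 0.13 and sulphite oxidase Suox at 0.88 ± 0.13. St13, a cofactor of Hsp70 outside the heat shock list, rose by 0.84 ± 0.12. Mgst2, a glutathione transferase of membranes, had 492, 543, 627 and 681 counts at CT17 and 1135, 1135, 1279 and 1368 at CT5 (log2 fold change -1.07 ± 0.13, edgeR adjusted p = 4.3e-07). Hsd17b2, which inactivates sex steroids, was at -0.96 ± 0.13, the sodium-calcium exchanger Slc8a1 at -0.81 ± 0.10, the cAMP-activated exchange factor Rapgef4 at -1.29 ± 0.18 and the ubiquitin ligase Wwp2 at -0.74 ± 0.11. Arhgap20 and Mier3 were at -1.28 ± 0.17 and -1.41 ± 0.20. Each of these 14 genes kept an adjusted p under 0.05 when single mice were left out.

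The changes in Bmal1IEC-/- colon were set beside those of control colon between the same times, where 1215 genes passed, 497 higher and 718 lower. Of the 857 genes that passed in Bmal1IEC-/- colon, 488 also passed in control colon in the same direction and 0 in the opposite one, which is 56.9% of the former and 40.2% of the 1215. The sign was the same for 830 of the 857 (96.8%), beside 76.6% of all genes tested, and the median size of the change was 0.87 in Bmal1IEC-/- colon and 0.72 in control colon along the same direction. For the 1215 control genes the medians were 0.84 in control and 0.61 in Bmal1IEC-/- colon. Each set was chosen in the genotype with the larger of its medians, so these sizes are a description. Across all 15073 genes the Pearson correlation of both fold changes was 0.508, over genes measured in the same 16 libraries. The genotype difference itself passed the adjusted p for 12 genes, 11 of them with a change more negative in Bmal1IEC-/- colon, and for 10 genes with the fold threshold as well, 1 more positive (0.00663% of genes) and 9 more negative (0.0597%). At an unadjusted p under 0.05 the number was 598, 3.97% of the genes tested. Of the 288 genes that passed in Bmal1IEC-/- colon and had an adjusted p of at least 0.05 in control colon, 1 had a genotype difference past the adjusted p, Abcb1a.

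Among the 12 genes are Cry1, Per2 and Nfil3 of the clock, Car2, Ces1d and Abcb1a of the lists above, and Lingo4, Acaa1b, Cyp4b1, Sord and 9030625G05Rik. Lingo4 was at -0.31 ± 0.30 in Bmal1IEC-/- and 2.75 ± 0.47 in control colon. Its counts were low, at 13.7 to 22.1 at CT17 and 15.9 to 26.2 at CT5 in Bmal1IEC-/- colon. In control colon they were 6.38 to 18.8 and 0.97 to 2.80, the latter within the 3 counts that a 0 allows, so the size of its change there is uncertain. Acaa1b, a thiolase of peroxisomes, had 45.9, 53.9, 60.2 and 78.02 counts at CT17 and 68.3, 75.7, 79.7 and 141 at CT5 in Bmal1IEC-/- colon, with log2 fold changes of -0.61 ± 0.22 there and 0.90 ± 0.21 in control colon. Cyp4b1, a cytochrome P450, was at -0.50 ± 0.24 and 1.09 ± 0.20, and Sord, which oxidises sorbitol, at -0.36 ± 0.08 and 0.16 ± 0.08. In the 16 fits that left out 1 mouse of either genotype, Cry1, Ces1d and Car2 passed in all 16, Per2 and Lingo4 in 15, Nfil3 in 13, 9030625G05Rik in 12, Acaa1b in 11, Cyp4b1 in 10, and Abcb1a and Sord in 5. Over all 48 mice 9030625G05Rik, Sord, Abcb1a and Acaa1b missed the threshold (edgeR adjusted p = 0.175, 0.132, 0.0541 and 0.0511). With the compared groups alone Abcb1a and Sord (both 0.129), Nfil3 and 9030625G05Rik (both 0.106), Car2 (0.0838) and Cyp4b1 (0.0598) missed it, and without the filter on low counts Sord (0.0693). Cry1, Per2, Ces1d and Lingo4 passed over all 48 mice, with the compared groups alone and without the filter.

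**Figure D5:**
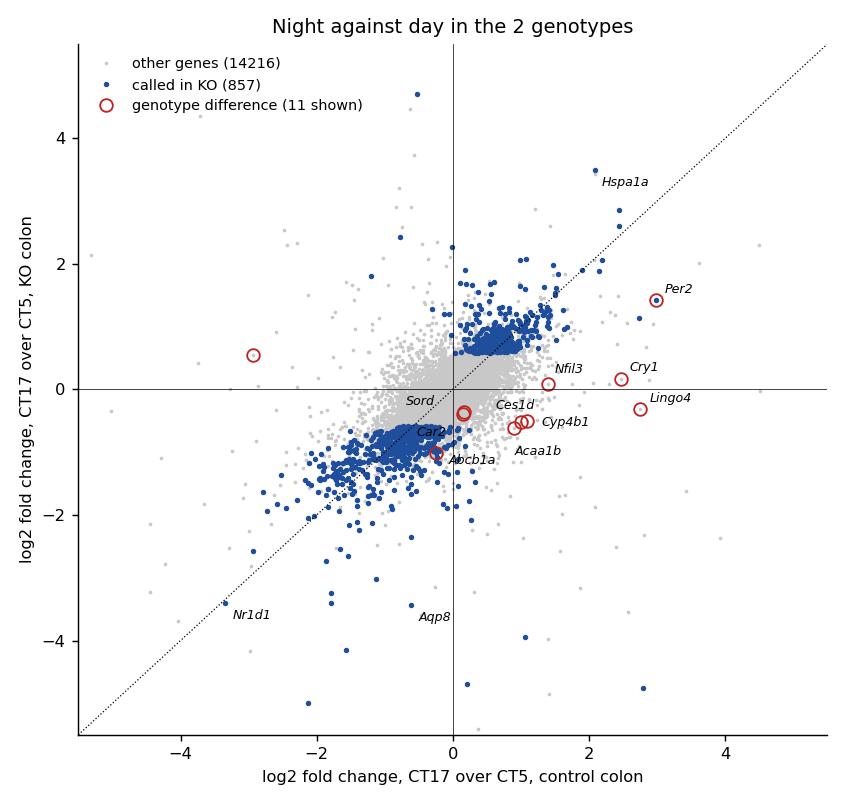
Log2 fold changes of CT17 over CT5 for 15073 genes, control colon on the horizontal axis and Bmal1IEC-/- colon (KO) on the vertical one, with 7 genes beyond the axes. Blue points are the 857 genes that passed in KO colon, red circles 11 of the 12 genes with a genotype difference, and the dotted line marks equal change. Nr1d1 lies on that line, while Cry1, Lingo4 and Nfil3 lie near 0 in KO colon.

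The same direction was looked for in Bmal1IEC-/- mice that the comparison did not use, as the mean of CT13 and CT21 against the mean of CT1 and CT9, where 14 mice entered and 38 genes were higher (0.252%) and 118 lower (0.783%) in the night. Of the 857 genes, 795 (92.8%) had the same sign there, beside 68.9% of all genes tested, with a median size of 0.34, and 103 passed in the same direction, 12% of the 857 and 66% of the 156. Nr1d1 passed again, at -1.56 ± 0.33 (edgeR adjusted p = 0.007). Its mean counts from CT1 to CT21 were 21.8, 190.1, 165, 58.1, 18.03 and 6.96, with the lowest at CT21. For Per2 the corresponding means were 191, 148, 245, 413, 396 and 241, so that CT13 and CT17 were the high times. The mitosis list had a median of -0.68 in this contrast, the heat shock list 0.27 and the endoplasmic reticulum list 0.04. Among the 318 genes higher at CT17, 232 had their highest mean of the 6 times at CT17 and 200 their lowest at CT5, where the choice of genes itself favours these times. Of the 539 lower genes, 429 were lowest at CT17, and 283 were highest at CT5, 123 at CT1 and 122 at CT9. The count of 156 depended on single mice, being 7 without SV479 and 100 without SV480, both of CT1, and 78 without SV470 and 255 without SV471, both of CT21.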

How the data were processed

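Colon RNA of 48 mice was sequenced as paired reads from a stranded poly(A) library kit. The authors deposited read counts per gene on exons, whole numbers without normalization. The submitters' processing notes name FastQC 0.11.5, Trimmomatic 0.39, STAR 2.7.5c, SAMtools 1.3.1, featureCounts 1.4.6, DESeq2 1.22.0 and mm10. The strand setting of the counting is not given in the sources used here, and 19 of the 102 named genes overlap a tested gene on the other strand, as Nr1d1 overlaps Thra.

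Counts were tested in edgeR 4.0.16 (R 4.3.3; quasi-likelihood F test, filterByExpr, TMM, p-values adjusted by Benjamini-Hochberg) in a model of 12 groups over 46 mice, all but Bmal1IEC-/- CT1 mice SV384 and SV385, which the size factors in the study's own rhythm table leave out. Genes passed at an adjusted p under 0.05 and a fold change of at least 1.5. The steps were tested on simulated data. Normalised counts used DESeq2 1.42.0 size factors. Symbols came from GENCODE vM21 (55141 of 55401 identifiers). Figures were drawn with matplotlib 3.10.9 in Python 3.11.15.

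The comparison and the gene lists were chosen with earlier results of these data known. Named genes are the core clock list, the 12 smallest adjusted p in each direction without predicted genes and pseudogenes, up to 2 genes in each direction of each other list, and the 5 smallest in each direction of the genotype difference. Another 12 (Hsph1, Hspa1a, Hspa1b, Hspa5, Mki67, Slc26a3, Car1, Car2, Abcc3, Sord, Acaa1b and Cyp4b1) and further list members were named after their values were seen. Alternatives were DESeq2, its size factors, all 48 mice, fits of the compared groups alone, no filter on low counts, other thresholds and leaving out single mice. Results for some core clock genes are not reported here.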

Additional observations from a re-analysis of the deposited data

Results flagged for a closer look

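The named genes and the levels of 5 gene lists in both groups of Bmal1IEC-/- colon made 214 groups of values. In 9 of them (4.21%), all of single genes, 1 mouse stood apart from the other 3, with a gap to the nearest of them, as a share of the range of the group, above Dixon's critical value for 4 samples. Chance gives about 1 in 20. At CT17, mouse SV437 was the highest for Hspa8 (gap of 0.934 of the range), Wwp2 (0.926, at 351 against 304 to 307) and Hlf (0.834, at 74.3 against 39.1 to 44.9). At the same time SV481 was the highest for Abcb1a (0.848) and the lowest for Cxcl10 (0.899, at 1.003 against 1.86 to 1.95, near a single read). At CT5, SV477 was the highest for Reg3g (0.906) and Acaa1b (0.845, at 141 against 68.3 to 79.7), SV439 the lowest for Arhgap20 (0.837, at 407 against 641 to 687) and SV478 the highest for Nr4a3 (0.907, at 11.3 against 5.05 to 5.62).

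The change between CT17 and CT5 differed between the genotypes, by the tested difference of log2 fold changes (Bmal1IEC-/- minus control), for 12 genes. The differences reported here were 3.47 for 9030625G05Rik, -3.06 for Lingo4, -2.29 for Cry1, -1.59 for Cyp4b1, -1.55 for Per2, -1.52 for Acaa1b, -1.51 for Ces1d, -1.30 for Nfil3, -0.77 for Abcb1a, -0.55 for Car2 and -0.52 for Sord.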

How the results depend on the processing

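In Bmal1IEC-/- colon 836 genes passed with DESeq2, 860 with its size factors, 767 over all 48 mice, 751 with the compared groups alone, 978 without the filter on low counts and 592 to 967 without single mice, each within 1.5 times 857, with the lowest count without SV399. By the adjusted p alone the counts were 2061 in Bmal1IEC-/- colon, 2675 in control colon and 342 in the contrast of the remaining times. With edgeR's test against the fold of 1.5 itself (glmTreat) they were 38, 144 and 0, the last beside 147 at an unadjusted p under 0.05 and 183 by DESeq2, and 4 for the genotype difference. The genotype difference had 7 genes over all 48 mice and 7 with the compared groups alone, 10 with DESeq2's size factors and 15 by DESeq2, beside 10. Without the filter it had 149 genes and the remaining times 315. Leaving out single mice gave 819 to 1387 genes in control colon, 4 to 16 for the genotype difference (4 without SV447, 6 without SV416 and 16 without SV398) and 7 to 255 for the remaining times. The sign of genes near 0 turned, with Bhlhe40 at 0.0072 without the filter, and without single mice from -0.13 to 0.18 for Bhlhe40, -0.0908 to 0.0689 for Cry2, -0.0496 to 0.0683 for Tef, -0.25 to 0.11 for Hlf and -0.0893 to 0.0132 for Arntl. The cause was not tested. Mouse numbers are unique. No paired analysis was possible because no number joins a CT17 to a CT5 mouse. At 3435263 to 4331962 counts a mouse, genes of a few counts such as Cxcl10 at CT17 and Hspa1a at CT5 are limited by depth.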
